A study of Mus musculus with 10 samples.

Results

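The Slc25 family codes for the solute carriers of the inner mitochondrial membrane. Its members were taken as the protein-coding genes whose mouse symbol in the Ensembl annotation of GRCm38 is Slc25a followed by digits, which gave 47 genes. Counts were found for 42 of them, out of 20009 genes with counts, and 19 had enough counts for a test. RNA sequencing of wild-type mice set the slow-twitch soleus of the calf beside tibialis anterior (TA), a fast muscle at the front of the lower leg. There were 3 male and 2 female libraries of each muscle, 10 in all, and the labels gave neither strain nor age. Each muscle was sequenced whole, so a higher level of a carrier can come from more cells of a type or from more RNA per cell, which cannot be told apart here.

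The inner mitochondrial membrane is impermeable to most metabolites, and each carrier lets particular ones across, often in exchange for another. ADP/ATP and phosphate carriers feed ATP synthase and export its product, the aspartate/glutamate and oxoglutarate carriers are the membrane steps of the malate-aspartate shuttle, and the carnitine/acylcarnitine carrier brings fatty acids in for oxidation. Skeletal muscle is known for its high content of the ADP/ATP carrier, and its slow fibers for dense mitochondria that burn fat.

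Libraries held 726075 to 961237 counts. The soleus libraries carried the slow-fiber genes and the TA libraries the fast ones: 7 of 7 slow-fiber markers were higher in soleus and 7 of 7 fast-fiber markers were higher in TA by the edgeR quasi-likelihood test at an adjusted p under 0.05. The second female soleus library stood apart, with 15070 genes detected against 10971 to 11858 in the other libraries. It had counts for 36 Slc25 members, where the other soleus libraries had counts for 27 or 28, and all 4 counts of Slc25a2 came from it. Of its Slc25 counts 1.73% fell on transcripts annotated as retained introns, against 0.596% to 1.06% in the other libraries. The calls between the muscles below are therefore also given without it where they change.

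Levels are given in CPM, the counts of a gene scaled to the size of its library. Each fold change is soleus divided by TA on a log2 scale, printed with its standard error (SE), and negative values mean that TA was higher. Of the 19 tested members, 5 passed an adjusted p of 0.05 in the edgeR quasi-likelihood test with sex in the model, 3 higher in soleus (Slc25a34, Slc25a20 and Slc25a23) and 2 higher in TA (Slc25a12 and Slc25a25). That is 26.3% of the tested members, and 22.0% of all 5115 tested genes passed, so the family as a whole differed about as often as other genes. The share of members higher in soleus was 15.8% and the share higher in TA 10.5%, where 11.0% of all genes passed in either direction. The median fold change was -0.15 over the 19 members and 0.01 over all tested genes. At an unadjusted p under 0.05 there were 6 of 19 members, where 33.7% of all genes stood, and DESeq2 called the same number of members as edgeR, 5 of 19, with 20.9% of all genes. The libraries of the muscles did not overlap for 3 of the 19, or 15.8%, where 15.1% of all tested genes did not overlap. All soleus libraries stood above all TA libraries for 1 member, Slc25a34 (7.29% of all genes), and below them for 2, Slc25a12 and Slc25a25 (7.76%). Slc25a25 met the filter on low counts through its TA libraries alone, and Slc25a23 through its soleus libraries alone. Both thus entered the test through the muscle where they were higher. The same held for Slc25a27 and Slc25a29 through TA and for Slc25a15 through soleus, which did not pass the threshold. How many of the other genes did so was not counted.

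**Figure D1:**
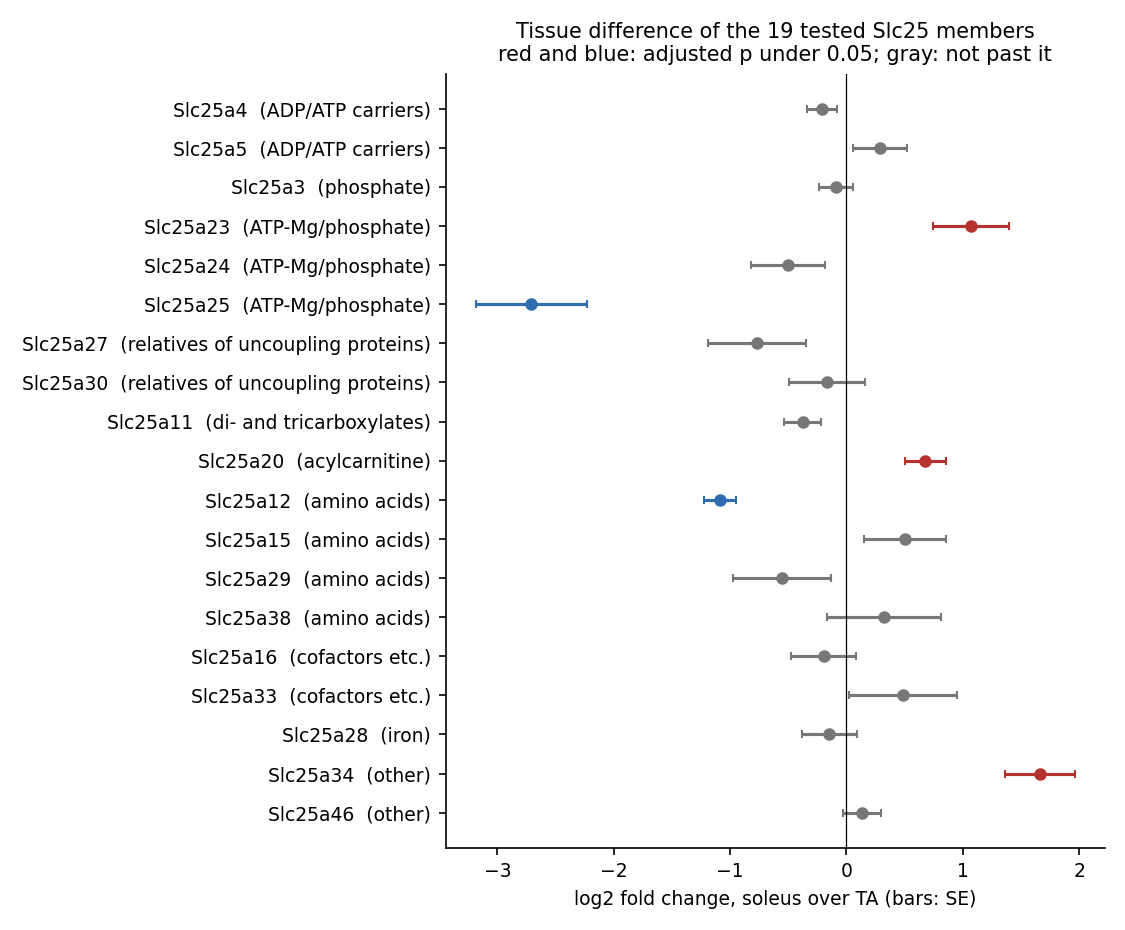
Log2 fold change of soleus over TA for the 19 tested Slc25 members, grouped by what they carry, with bars for the SE of the edgeR fit (5 libraries per muscle). Red points (Slc25a23, Slc25a20, Slc25a34) are past an adjusted p of 0.05 and higher in soleus, blue points (Slc25a25, Slc25a12) past it and higher in TA, and the 14 gray points did not pass.

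The 3 members whose libraries did not overlap between the muscles are shown here with the 250 bases upstream of their start, 5′ to 3′ on the minus strand of GRCm38, taken from the RefSeq promoter table for GRCm38.p6. Capitals mark motif matches on either strand: the ERR element AAGGTCA, the cyclic AMP response element (CRE) TGACGTCA, the E-box CANNTG and the GC box GGGCGG. For Slc25a25 the start was taken to be that of the transcript Slc25a25-203, a match that was not tested. Slc25a25-203 held 91.3% of the gene's counts and has 210 31-base words of its own. The full-length coding transcripts Slc25a25-201, Slc25a25-202 and Slc25a25-204 have 0 such words and Slc25a25-205 has 23, all with 0 counts, and the part of shared sequence in that share was not tested. The regions are chr2:71367756-71368005 for Slc25a12, chr2:32424067-32424316 for Slc25a25 and chr4:141623835-141624084 for Slc25a34.
Slc25a12: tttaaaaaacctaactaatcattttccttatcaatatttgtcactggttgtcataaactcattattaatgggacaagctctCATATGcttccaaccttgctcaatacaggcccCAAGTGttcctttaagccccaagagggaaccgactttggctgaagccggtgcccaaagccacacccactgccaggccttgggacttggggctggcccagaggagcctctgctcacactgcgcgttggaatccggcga
Slc25a25: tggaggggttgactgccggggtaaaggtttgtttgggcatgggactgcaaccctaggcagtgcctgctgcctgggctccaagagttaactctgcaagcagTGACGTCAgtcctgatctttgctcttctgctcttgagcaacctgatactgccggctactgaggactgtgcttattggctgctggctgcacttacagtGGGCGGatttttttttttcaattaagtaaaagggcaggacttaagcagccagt
Slc25a34: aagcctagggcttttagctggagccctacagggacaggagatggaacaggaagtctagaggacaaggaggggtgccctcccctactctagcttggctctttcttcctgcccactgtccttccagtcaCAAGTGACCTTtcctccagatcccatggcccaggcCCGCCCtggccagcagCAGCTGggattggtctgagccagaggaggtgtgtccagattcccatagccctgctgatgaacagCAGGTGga
The ERR element, a sequence bound by estrogen-related receptors, was found upstream of 1 of the 36 members with an entry in the table, Slc25a34, and in at least 1 promoter of 4.70% of 27025 genes. It is read on the other strand of the printed sequence, as TGACCTT, and shares its first bases with an E-box, CAAGTG. The CRE was found upstream of Slc25a25 and Slc25a36 and in 1.77% of genes. In Slc25a25 it lies at the start shown here, and another start in the table, with 232 bases upstream at chr2:32431170-32431401, has none of these motifs. A further start of Slc25a25 has 0 upstream bases outside annotated exons and is not described. E-boxes were found in 27 of the 36 members and 69.3% of genes, and GC boxes in 25 of the 36 and 35.4%. The NRF1 site, read as GCGC, 2 bases of any kind and GCGC, was found in 2 members, Slc25a3 and Slc25a31 (5.64% of genes), and the MEF2 core, read as CTA, 4 bases of any kind and TAG, in Slc25a10 and Slc25a22 (3.70%). These matches describe the letters in the window, and binding was not measured.

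Slc25a12, the calcium-regulated aspartate/glutamate carrier of muscle and brain (chr2:71271063-71367749, minus strand), was higher in TA. Its soleus libraries had 98.2, 126, 123, 98.8 and 108 CPM (males 1 to 3, then females 1 and 2), and its TA libraries 249, 291, 258, 200 and 189 CPM. The groups did not overlap. The log2 fold change was -1.08 (SE 0.14, edgeR adjusted p = 0.000105, n = 5 per muscle), a 2.12-fold higher level in TA, and the member passed in all 19 alternative fits. The transcript Slc25a12-206 held 99.1% of its counts, so the value is essentially that of 1 coding transcript. Its close relative Slc25a13, the aspartate/glutamate carrier known from liver, had no count in any library. Its full-length coding transcripts hold 1 and 55 31-base words of their own, and whether reads from them would have been counted was not tested.

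Slc25a11, the oxoglutarate carrier and the other membrane step of the malate-aspartate shuttle, did not pass (log2 fold change -0.38, SE 0.16, edgeR adjusted p = 0.112). It had 101, 89.7, 113, 83.0 and 56.0 CPM in soleus and 138, 137, 114, 107 and 77.5 CPM in TA. TA was higher in each of the 5 replicate pairs (the soleus and TA libraries of the same sex and number), although the groups overlapped. Of the enzymes that serve the shuttles for reducing equivalents, 4 of 6 were tested: Mdh1, the cytosolic malate dehydrogenase, was higher in soleus (0.86, SE 0.17, edgeR adjusted p = 0.00331), and Gpd1, the cytosolic enzyme of the glycerol phosphate shuttle, was higher in TA (-3.85, SE 0.21, edgeR adjusted p = 1.25e-07). The transaminases Got1 (-0.36, SE 0.19) and Got2 (0.29, SE 0.15) did not pass.

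Slc25a25, a calcium-dependent carrier that exchanges ATP-Mg for phosphate (chr2:32414487-32451445, minus strand), had the largest fold change among the tested members. It had 0, 0, 1.2, 7.9 and 9.1 CPM in soleus and 15.8, 11.6, 12.7, 24.4 and 44.3 CPM in TA, with no overlap. These levels rest on 15 counts in soleus and 100 in TA, and the gene met the filter through TA alone. The log2 fold change was -2.71 (SE 0.48, edgeR adjusted p = 0.00153), and the call held in all 19 alternative fits, with values from -3.12 to -2.49. Of the 15 soleus counts 8 came from the second female library, and without it the value was -2.98 (edgeR adjusted p = 0.00101).

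Slc25a23, a sister carrier of ATP-Mg and phosphate (chr17:57043711-57059863, minus strand), lay on the other side. It had 14.0, 18.7, 20.9, 9.2 and 21.7 CPM in soleus and 5.6, 7.0, 9.2, 7.0 and 11.1 CPM in TA. Soleus was higher in all 5 replicate pairs and the groups overlapped. The gene met the filter through soleus alone. The log2 fold change of 1.07 (SE 0.33, edgeR adjusted p = 0.0339) was a weak call on 69 soleus and 36 TA counts. It was past the threshold in 10 of 19 alternative fits. Leaving out 1 library took the adjusted p above 0.05 in 7 of 10 cases: 0.0818 without TA male 1, 0.0722 without TA male 2, 0.0539 without TA male 3, 0.0842 without TA female 1, 0.0694 without soleus male 2, 0.0801 without soleus male 3 and 0.0705 without soleus female 2. Summing only protein-coding transcripts gave 0.0632, and the fit with no filter on low counts gave the largest value, 0.100. The sister Slc25a24 did not pass (-0.50, SE 0.32), and Slc25a41 had no counts. The ATP-Mg/phosphate group thus held 1 member higher in soleus, 1 higher in TA and 1 that did not pass.

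Slc25a34 (chr4:141618824-141623821, minus strand), a carrier whose substrate is not established, was higher in soleus. It had 77.2, 87.0, 52.8, 134 and 44.5 CPM in soleus and 22.6, 22.0, 15.0, 40.7 and 26.2 CPM in TA. The lowest soleus library stood just above the highest TA library, and each of the 5 replicate pairs was higher in soleus. The log2 fold change was 1.66 (SE 0.30, edgeR adjusted p = 0.00176), a 3.17-fold higher level in soleus, and it ranged from 1.36 to 1.94 when each library was left out. Its counts fell on a single transcript, nearly all of whose sequence is its own. Markers of fat cells had higher levels in soleus as well. Of 6 white adipocyte markers, Fabp4, which endothelium also expresses, made up most of the summed level (154 ± 30.6 CPM in soleus and 141 ± 44.9 CPM in TA, SD, n = 5), and the sum was 146 to 233 CPM in soleus and 92.5 to 218 CPM in TA. The other 5 had mean levels of 8.33 against 1.82 CPM (Adipoq), 8.14 against 1.84 (Cfd), 3.43 against 0.201 (Retn), 2.20 against 0.432 (Plin1) and 1.68 against 0 (Lep). Of 4 brown adipocyte markers the sum was 18.7 to 35.1 CPM in soleus and 3.48 to 20.9 CPM in TA, with Ucp1 at 0 in every library. Of each list 2 markers were tested and 1 passed toward soleus, Adipoq and Cidea. Their part in the differences of the carriers was not tested. The sum of 5 endothelial markers ran the other way, at 179 to 265 CPM in soleus and 237 to 796 CPM in TA. Most of it came from the tested markers Cdh5 (mean 165 CPM in soleus against 395 in TA) and Kdr (47.3 against 126), both higher in TA. The untested Pecam1 (4.96 against 4.21), Tie1 (2.18 against 1.15) and Egfl7 (2.01 against 1.15) had higher means in soleus. The part of endothelial cells in the differences of the carriers was not tested either.

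Slc25a20, the carnitine/acylcarnitine carrier (chr9:108662088-108684641, plus strand), was higher in soleus. It had 134, 141, 101, 113 and 87.9 CPM in soleus and 89.1, 74.1, 92.5, 67.5 and 42.2 CPM in TA. The groups overlapped in part, and soleus was higher in all 5 replicate pairs. The log2 fold change was 0.68 (SE 0.18, edgeR adjusted p = 0.0151), 1.60-fold, and the call held in all 19 alternative fits, with an adjusted p of at most 0.0491. Among the 66 counts on its retained-intron transcript Slc25a20-202, 20 came from the second female soleus library. With protein-coding transcripts alone the value was 0.71 (edgeR adjusted p = 0.0132). Of 4 tested genes that load or unload carnitine, Cpt1b, the muscle form of the acyl transferase of the outer membrane, was higher in soleus too (0.67, SE 0.21, edgeR adjusted p = 0.0377). Cpt1a (0.53, SE 0.28), Cpt2 (0.21, SE 0.24) and Crat (0.08, SE 0.42) did not pass.

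**Figure D2:**
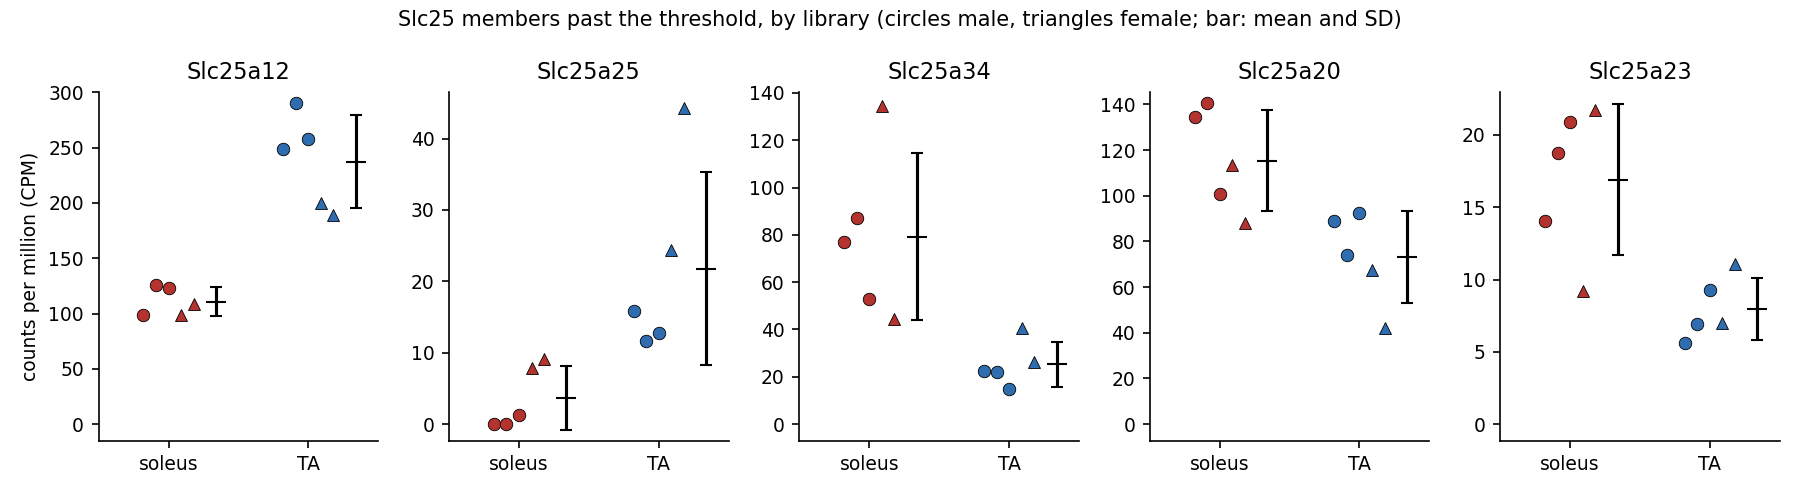
Level in CPM (linear axis) of the 5 Slc25 members past the threshold in each soleus (red) and TA (blue) library, circles for male and triangles for female, with the mean and SD of 5 libraries beside them. The muscles separate without overlap for Slc25a12, Slc25a25 and Slc25a34, while the lowest soleus points of Slc25a20 and Slc25a23 reach into the TA range.

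The most abundant carriers did not pass. Slc25a4, the ADP/ATP carrier of heart and skeletal muscle, had 4156, 3618, 3685, 3620 and 3445 CPM in soleus and 4973, 5134, 4378, 3884 and 3290 CPM in TA. The groups overlapped, with 4 of 5 replicate pairs higher in TA, and the log2 fold change was -0.21 (SE 0.13, edgeR adjusted p = 0.282). Per kilobase of its leading transcript it stood at 1925 CPM in soleus and 2250 CPM in TA, or 77.9% and 80.5% of the family's summed level per length. Slc25a5, the ADP/ATP carrier of growing cells, did not pass (0.29, SE 0.23). It is an uncertain case, since only 50.6% of its 31-base words occur in no other gene. Slc25a4 held 99.2% ± 0.120 (SD, n = 5) of the counts of this pair in soleus and 99.4% ± 0.231 (SD, n = 5) in TA. Slc25a31, the form known from testis, had no counts.

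Slc25a3, the phosphate carrier, came next, at 212 CPM per kilobase in soleus and 233 in TA. It had 351, 269, 339, 237 and 223 CPM in soleus and 369, 433, 361, 214 and 185 CPM in TA, and the ranges overlapped throughout (log2 fold change -0.09, SE 0.15, edgeR adjusted p = 0.728). The gene has a pair of mutually exclusive coding exons, and the upstream one is known as the form of heart and skeletal muscle. The exons are printed because they set the forms apart, 5′ to 3′ on the minus strand as in the GENCODE M21 transcripts. The upstream exon, of the transcript Slc25a3-206, lies at chr10:91122207-91122331 and the downstream exon, of Slc25a3-201 and Slc25a3-203, at chr10:91121922-91122043. Capitals mark bases that are not identical in the alignment of the exons.
Slc25a3-206: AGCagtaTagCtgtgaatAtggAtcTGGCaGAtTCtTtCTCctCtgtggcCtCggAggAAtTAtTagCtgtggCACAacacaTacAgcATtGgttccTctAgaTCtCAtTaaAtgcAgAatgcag
Slc25a3-201: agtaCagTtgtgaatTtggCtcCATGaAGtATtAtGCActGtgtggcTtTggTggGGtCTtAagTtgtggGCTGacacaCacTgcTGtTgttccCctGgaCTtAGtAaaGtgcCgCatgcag
The exons share 77 of 125 aligned bases, or 61.6%. The transcript with the upstream exon held 93.2% ± 0.647 (SD, n = 5) of the gene's counts in soleus and 93.1% ± 2.03 (SD, n = 5) in TA, and transcripts with the downstream exon held 5.32% ± 1.28 and 5.12% ± 1.68. The muscles thus did not differ in this choice beyond the spread of the libraries, by description and with no test. Slc25a3-206 has only 22 31-base words of its own, and how reads were assigned to it was not tested.

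**Figure D3:**
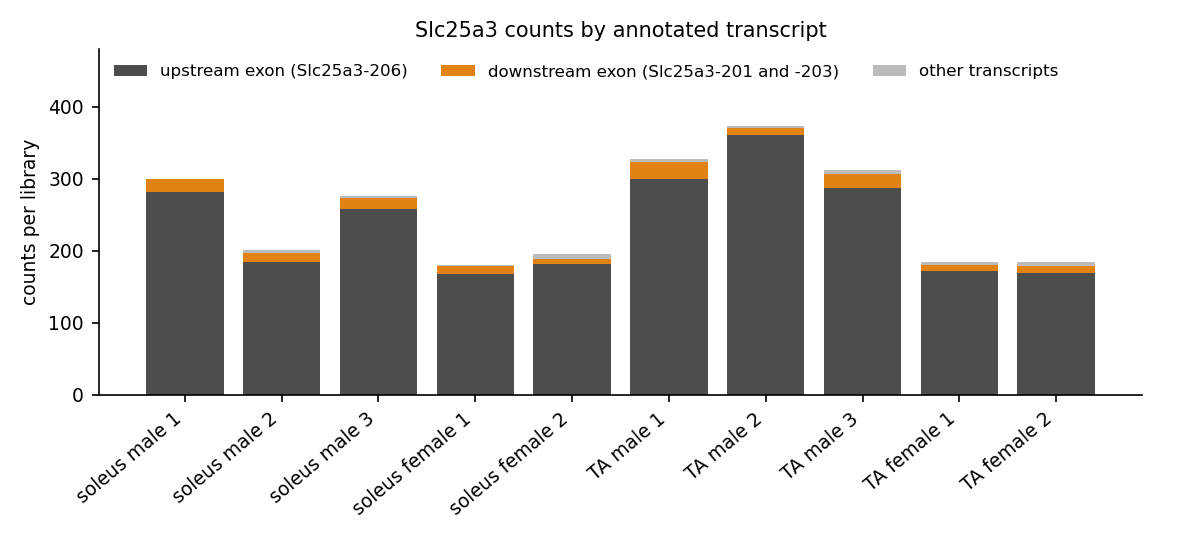
Counts of Slc25a3 in each of the 10 libraries, stacked by annotated transcript: the upstream exon (dark), the downstream exon (orange) and other transcripts (light). The dark part is 91.7% to 96.5% of the bar in every library, and the bars of the 4 female libraries are the lowest.

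Below these carriers the order per kilobase was, by the mean of both muscles, Slc25a11 (51.7 CPM in soleus, 67.0 in TA), Slc25a20 (64.7 and 41.0), Slc25a33 (45.8 and 29.6), Slc25a28 (26.9 and 29.7) and Slc25a12 (17.5 and 37.4). Slc25a5, Slc25a46 and Slc25a34 followed at 9.47 to 29.7 CPM per kilobase, and the other tested members were under 10. The libraries of Slc25a4, Slc25a3 and Slc25a11 did not overlap in either muscle, while each neighbouring pair from Slc25a11 to Slc25a28 overlapped in both. Slc25a12 stood below every Slc25a28 and Slc25a5 library in soleus, and in TA it overlapped with Slc25a28 and stood above every Slc25a5 library. Levels of different genes carry the limit that the assignment of reads shared between transcripts is not known. The labels name the preparation Tag-Seq, and whether counts scale with transcript length was not tested. Without the division by length Slc25a12 (mean 111 CPM in soleus, 237 in TA) stood above Slc25a11 (88.5 and 115). All members summed to 4769 ± 365 CPM (SD, n = 5) in soleus and 5457 ± 925 CPM in TA, and without Slc25a4 to 1064 ± 141 and 1125 ± 166 CPM. TA was the higher of the muscles in 4 of 5 replicate pairs by either sum, and in 5 of 5 by the share of all counts, 0.474% ± 0.0470 in soleus and 0.547% ± 0.0618 in TA. The total behind that share differs by muscle, since the single gene Gm20594 took 22.1% to 28.4% of soleus counts and 17.2% to 20.9% of TA counts. Its part in the share was not tested.

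The remaining tested members did not pass in edgeR. Among the amino acid carriers these were Slc25a15, the ornithine carrier (0.50, SE 0.35), Slc25a29, a carrier of basic amino acids (-0.55, SE 0.42), and Slc25a38, the glycine carrier that serves heme synthesis (0.33, SE 0.49). Slc25a27 (-0.77, SE 0.42) and Slc25a30 (-0.16, SE 0.33) are relatives of the uncoupling proteins. Slc25a16, linked to coenzyme A (-0.20, SE 0.28), Slc25a33, a pyrimidine nucleotide carrier (0.49, SE 0.46), and Slc25a46, an outer-membrane member with a part in mitochondrial shape (0.13, SE 0.17), also did not pass. Slc25a33 depended on 1 library: it had 237 CPM in soleus female 1 and 38.1 to 65.5 CPM in the other soleus libraries, and without that library its value was -0.27. Slc25a28, the mitochondrial iron importer mitoferrin 2, had -0.15 (SE 0.24). It held 90.8% ± 7.18 of the counts of Slc25a28 and Slc25a37 (mitoferrin 1, known from red cell precursors) in soleus and 95.1% ± 3.57 in TA (SD, n = 5).

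Of the 28 members without a test, 23 had 1 to 43 counts over all 10 libraries and 5 had none (Slc25a13, Slc25a31, Slc25a32, Slc25a41 and Slc25a54). The highest were Slc25a17, the peroxisomal carrier (43 counts), Slc25a36, a pyrimidine nucleotide carrier (30), Slc25a37 (26), Slc25a10, the dicarboxylate carrier (20), Slc25a42, a coenzyme A carrier (17), and Slc25a1, the citrate carrier, and Slc25a40, linked to glutathione, with 10 each. The other members had fewer: Slc25a18, a glutamate carrier, had 9, Slc25a44, a carrier of branched-chain amino acids, 8, and Slc25a47 7. Slc25a51, Slc25a48, Slc25a35, Slc25a22 and Slc25a39 had 6 each, Slc25a2, Slc25a14 and Slc25a43 had 4 each, Slc25a53 had 3, Slc25a26 and Slc25a45 had 2 each, and Slc25a21 had 1. The annotated sequence was set beside these counts as 31-base words that occur in 1 transcript only. Taking for each member the transcript with the most such words, the median was 2123 over the tested members, 980 over those below the filter and 432 over those with no count. Taking the transcript with the most counts, it was 1414 over the tested members and 753 over those below the filter. Few own words went with both high and low counts: the transcripts that hold most counts of Slc25a3, Slc25a28 and Slc25a44 have 22, 27 and 27 such words, and their genes had 2533, 374 and 8 counts. Slc25a32, a carrier linked to folate and FAD, has 3766 and Slc25a31 has 2098, with no counts. The part of shared sequence in these counts was not tested. A count of 0 allows up to 3 counts over all libraries, for counting error alone.

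**Figure D4:**
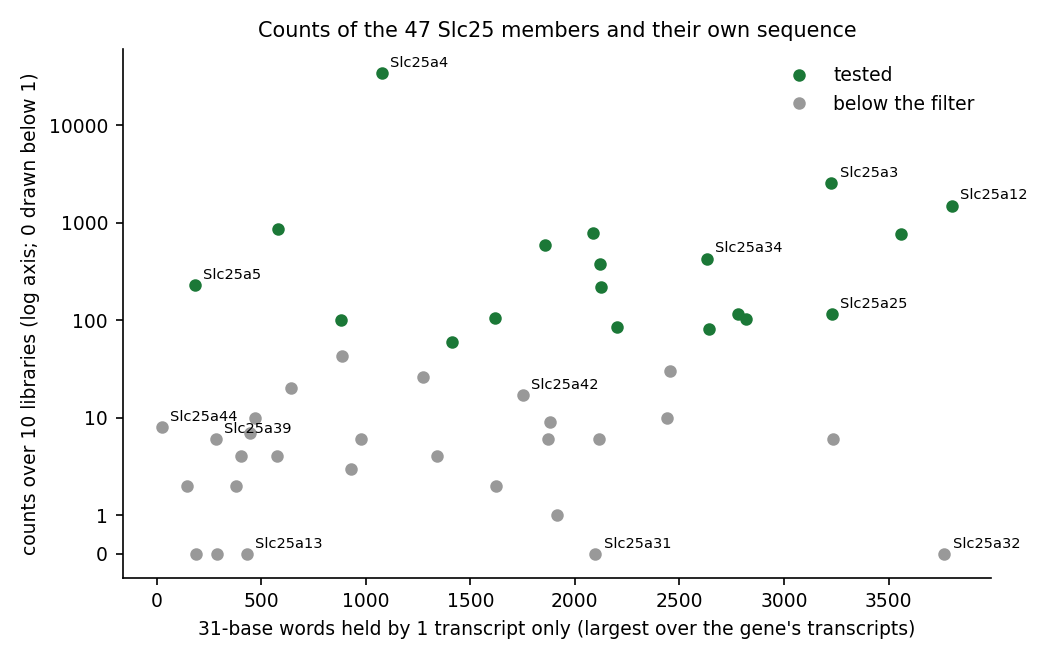
Total counts of the 47 Slc25 members over 10 libraries (log axis, with 0 drawn below 1) against the largest number of 31-base words that 1 of the gene's transcripts alone holds. Tested members (green) have 182 to 3803 such words and members below the filter (gray) reach down to 27, while Slc25a32 and Slc25a31 have 3766 and 2098 and no counts.

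Proteins that work beside the carriers were counted in the same fit. Of the 2 tested relatives outside the symbol rule, Ucp3, the uncoupling protein of muscle (-1.11, SE 0.53), and Ucp2 (-0.40, SE 0.21) did not pass. Among transporters of the inner membrane outside the family, Mcu, the pore of the calcium uniporter (0.75, SE 0.15, edgeR adjusted p = 0.00355), and its regulator Micu2 (1.04, SE 0.31, 0.0322) were higher in soleus. The regulator Micu3 was higher in TA (-2.12, SE 0.28, edgeR adjusted p = 0.000150), and 4 of the tested transporters did not pass. None of the 3 outer-membrane channels Vdac1 to Vdac3 passed (-0.23, -0.47 and -0.26). None of the 9 tested ATP synthase genes passed, with a median of 0.44. The genes with the most counts, Atp5b (12731 counts) and Atp5c1 (2344), stood at -0.05 (SE 0.13) and -0.04 (SE 0.16). The values at or above the median came from genes with 78 to 145 counts. Of 9 tested genes for the import of carriers, Timm8a1 was higher in soleus (0.96, SE 0.25, edgeR adjusted p = 0.0170) and 8 did not pass.

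Between the sexes no tested member passed in either muscle in edgeR. In soleus 0 of 19 passed, and 0.547% of all tested genes did. At an unadjusted p under 0.05 there were 5 of 19 members (16.5% of all genes), and DESeq2 called 0 (2.4% of genes). In TA 0 of 19 passed in edgeR, against 0.645% of genes. At an unadjusted p under 0.05 there were 6 of 19 (11.7% of genes), and DESeq2 called 1, Slc25a3 (1.54% of genes). Values below are log2 fold changes of female over male. Groups of 3 males and 2 females are small.

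Slc25a3 in TA had 369, 433 and 361 CPM in the males and 214 and 185 CPM in the females, with no overlap. Its log2 fold change was -0.96 (SE 0.20), with an edgeR adjusted p of 0.0547 and a DESeq2 adjusted p of 0.00646. In soleus the female values also lay below the male ones, at 237 and 223 CPM against 269 to 351 CPM (-0.48, SE 0.19, edgeR adjusted p = 0.254). The ratio of female to male counts, scaled to library size, was 0.513 in TA, with a 95% exact counting interval of 0.454 to 0.578, and 0.713 (0.629 to 0.808) in soleus. The intervals cover counting error only. Slc25a4 in TA had 3884 and 3290 CPM in the females and 4378 to 5134 CPM in the males (-0.43, SE 0.17, edgeR adjusted p = 0.347).

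Slc25a25 ran the other way, with its lowest values in male soleus. Over the 3 male soleus libraries it had 1 count, and over the 2 female ones 14, a ratio of 20.7 (3.15 to 875), with a log2 fold change of 3.96 (SE 0.84, edgeR adjusted p = 0.0596). The 1 male count was in soleus male 3, and without that library, with no male count left, the fitted value was 5.90 (edgeR adjusted p = 0.118). In TA the females had 65 counts and the males 35, a ratio of 2.62 (1.71 to 4.07), and the value was 1.36 (SE 0.41, edgeR adjusted p = 0.198). TA stood above soleus in both sexes, by 32.3-fold (5.43 to 1313) in males and 4.09-fold (2.27 to 7.90) in females. The test of whether the tissue difference depends on sex gave 2.60 (SE 0.98) for Slc25a25, with an edgeR adjusted p of 0.709, and 4.54 (adjusted p = 0.756) without soleus male 3. In that test 0 of 19 members passed, as did 0.0% of all genes, while 1 of 19 had an unadjusted p under 0.05 (6.86% of genes) and DESeq2 called 0 (0.0587% of genes).

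Slc25a33 and Slc25a30 were the other members with an unadjusted p under 0.05 toward female soleus. For Slc25a33 the value of 1.44 (SE 0.56, edgeR adjusted p = 0.228) came from soleus female 1, and without that library it was -0.37. For Slc25a30 it was 1.37 (SE 0.46, edgeR adjusted p = 0.165). Slc25a11 in soleus (-0.55, SE 0.24) and Slc25a12 (-0.45, SE 0.19), Slc25a20 (-0.64, SE 0.26) and Slc25a29 (1.25, SE 0.52) in TA completed the members under that unadjusted p. Red blood cell genes differed between the same libraries: their summed level was 14226 to 36848 CPM in male soleus, 261 and 2526 CPM in female soleus, 6255 to 21794 CPM in male TA and 1569 and 4469 CPM in female TA. The part of blood in the sex values was not tested.

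**Figure D5:**
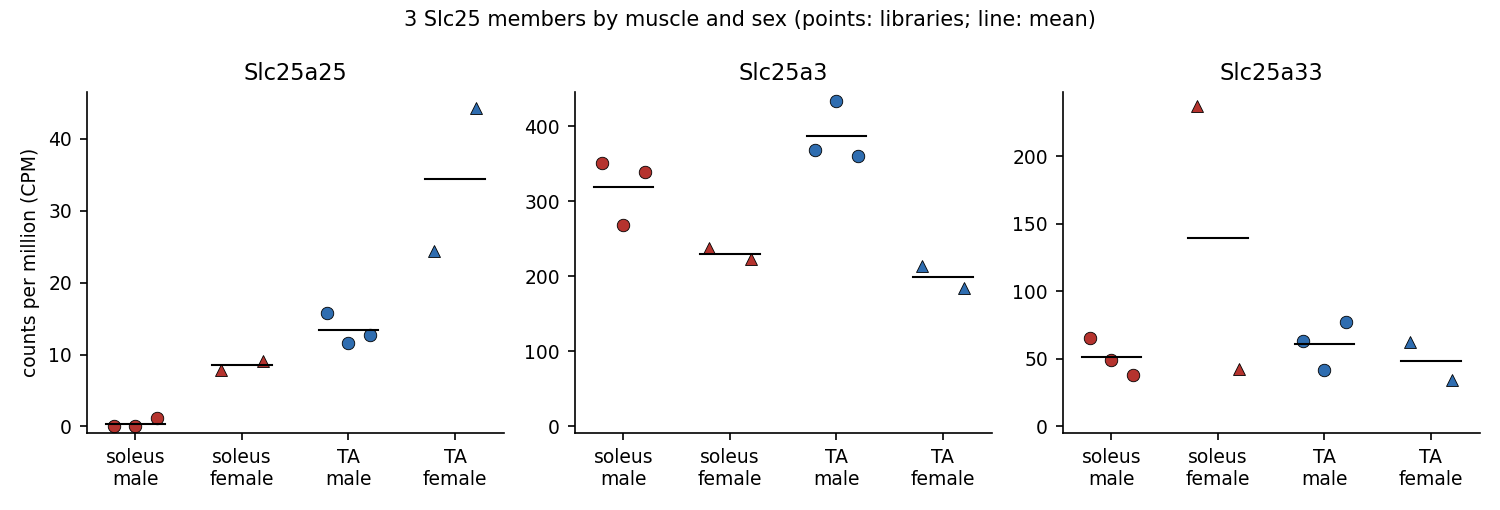
Level in CPM (linear axis) of Slc25a25, Slc25a3 and Slc25a33 by muscle and sex, with a point for each library and a line for the mean of 3 males or 2 females. Slc25a25 is lowest in male soleus, the female points of Slc25a3 lie below the male ones in both muscles, and Slc25a33 has 1 high library, soleus female 1, at 237 CPM.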

How the data were processed

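Per the labels' protocols, 10 ng of total RNA from each muscle was made into stranded SMART-Seq libraries for Illumina sequencing, in a preparation the labels name Tag-Seq. The deposited files hold raw counts per Ensembl transcript. Per the submitters' processing notes, bcl2fastq, Trimmomatic 0.32 and FastQC were used with GRCm38.p4. Which program aligned and counted the reads is not given in the sources used here.

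Listed transcripts were joined by identifier to GENCODE M21 and added up per gene (40359 of 40414 were found there, and the other 55 were left out). Libraries held 726075 to 961237 counts, with 17.2% to 28.4% on the single gene Gm20594. The filter filterByExpr, given the 4 combinations of muscle and sex, kept 5115 genes, and TMM set the scaling. The muscle comparison used the quasi-likelihood F test of edgeR 4.0.16 in a model of muscle plus sex. For the comparison of females with males, and for the interaction, the model had 1 mean per combination. Benjamini-Hochberg adjustment ran over all 5115 genes. Other software was R 4.3.3, limma 3.58.1, DESeq2 1.42.0, Python 3.11.15, pandas 2.3.3, scipy 1.17.1, Biopython 1.88 and matplotlib 3.10.9, and the fits were tested on simulated data.

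How reads shared between transcripts were assigned is not known, so the 31-base words that occur in 1 GENCODE transcript only were counted for each member. Every member past the threshold is named with its value in each library, the other tested members with their fold change, and untested members with their total counts. In each list of neighbouring genes up to 4 with the smallest p are named, and for ATP synthase those with the most counts. A few single-gene values are not reported here. The members and lists were chosen with earlier results of these data known, and the motifs and the genes plotted by sex after their values were seen.

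Nothing in the labels says that libraries of a group came from separate animals, so p-values measure the spread between these samples, which may be technical. Replicate numbers were checked as pairs: deviations from the means of muscle and sex correlated between the soleus and the TA library of a number with r of 0.183 to 0.239 in males and 0.285 in females. Between different numbers of the same sex, the highest r was -0.0705 in males. With 2 female libraries per muscle the deviations are exact opposites. Both female pairs therefore have the same r, and swapped pairs have -0.285, so the female check gives only a sign. All r within a number exceed 0.1, so the numbers were taken to pair the samples, and a fit with that block was an alternative. Further alternatives were the size factors and the Wald test of DESeq2, upper-quartile scaling, fits with no filter or with a minimum mean of 5 CPM, library sizes without Gm20594 and Cep295 or without mitochondrially encoded genes, protein-coding transcripts alone, and leaving out each library.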

Additional observations from a re-analysis of the deposited data

Results flagged for a closer look

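In the 19 tested members the highest and lowest library of each muscle was compared with its nearest neighbour, which makes 38 groups of 5 libraries, and chance alone marks about 1 in 20 such groups. There were 2 marked values. Slc25a33, a pyrimidine nucleotide carrier, had 237 CPM in soleus female 1, where the next soleus library had 65.5 CPM. Slc25a24, an ATP-Mg/phosphate carrier, had 5.71 CPM in soleus female 2, the library with the most genes detected, where the next lowest soleus library had 11.9 CPM.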

How the results depend on the processing

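For tissue, the number of Slc25 members past the threshold was 4 or 5 in every alternative (4 without a filter on low counts and with protein-coding transcripts alone, 5 with the others that keep all libraries), and 4 to 5 when each library was left out. The count over all genes was 1035 to 1364, and 892 to 1353 with a library left out. Slc25a12, Slc25a20, Slc25a25 and Slc25a34 passed in all 19 fits, and Slc25a23 in 10. With the replicate block, which pairs the muscles by replicate number, 5 members and 1207 genes passed, and no member's call changed. Members called by sex in soleus were 2 without a filter (Slc25a25 and Slc25a33) and 0 with any male library left out. Leaving out soleus female 1 or 2 leaves 1 female soleus library, so only values are given for those fits. They were 3.96 and 3.85 for Slc25a25, -0.95 and -0.28 for Slc25a11, and -0.37 and 2.22 for Slc25a33. By sex in TA, 1 member, Slc25a3, passed with DESeq2 and without a filter, and 0 to 1 with a library left out, where it passed without soleus female 1 (edgeR adjusted p = 0.0164) or female 2 (0.0198). Without a filter, 1 interaction passed, Slc25a33. Signs that turned with a library left out were all of values not past the threshold: Slc25a3 (-0.18 to 0.0056), Slc25a28 (-0.38 to 0.027), Slc25a30 (-0.41 to 0.018), Slc25a33 (-0.27 to 0.72, and -0.37 to 2.22 for sex in soleus) and Crat (-0.14 to 0.36). The cause of these shifts was not tested, beyond the fewer samples or the larger number of genes that each alternative uses. The depth of 726075 to 961237 counts per library limits the members below the filter.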
